A study of Mus musculus with 9 samples.

Results

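The genes described here are 43 autophagy and lysosome genes, taken by symbol from a list, out of 17314 genes in the count table. All 43 were in the table, and all 43 were among the 13044 genes abundant enough to be tested. They cover 8 roles, from the kinases that start autophagy to the proteases inside the lysosome. RNA was sequenced from the gastrocnemius, the large and mostly fast calf muscle, of mice at 3 ages, 6, 15 and 21 months, with 3 mice and so 3 libraries per age. The series is titled as a study of aging skeletal muscle and the receptor alpha for thyroid hormone, and the labels give no treatment or genetic change. The sources used here give neither strain nor sex. The comparisons therefore ask which of these genes differed between ages.

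Autophagy encloses parts of the cell in a double membrane, the autophagosome, which then fuses with the lysosome so that its content is digested. The ULK1 kinase complex starts the process, a lipid kinase complex marks the membrane, a pair of conjugation reactions attaches ATG8 proteins to it, and cargo receptors link what is to be degraded to those ATG8 proteins. In skeletal muscle autophagy removes worn mitochondria and protein aggregates, and the transcription factor TFEB is known to raise lysosomal and autophagy genes by binding a short palindrome, CACGTG, in their promoters.

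Because Tfeb is among the genes and several others are known TFEB targets, the promoters were searched for that palindrome, which reads the same on both strands. The promoter here is the stretch from 250 bases before to 50 bases after a RefSeq start (build GRCm38.p6), and 35 of the 43 genes had an entry. The palindrome was found in 8 of these 35 genes (22.9%), against 8.09% of 27025 genes with a promoter. The longer TCACGTGA, which contains it, was found in Atg3 and Ctsd (5.71% of the 35 genes, against 1.12% of all). The Lamp1 promoter held 4 copies, Atg3 and Ctsd held 2 each, and Atg5, Atg7, Atg14, Bnip3 and Ctsl held 1 each. The copies of Atg5, Atg7 and Ctsl lay inside the annotated span of the gene, before a RefSeq start that was not the outermost. A match of letters describes the sequence and is not a measured binding site. The sequences below show the densest cluster, the copies with the longer motif and the copy of Bnip3, each 5′ to 3′ on the strand of the gene with the palindrome in capitals.
Lamp1 (chr8:13159080-13159171, plus strand): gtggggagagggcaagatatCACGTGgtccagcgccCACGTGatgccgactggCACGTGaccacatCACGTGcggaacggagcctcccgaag
Ctsd (chr7:142387900-142387945, minus strand): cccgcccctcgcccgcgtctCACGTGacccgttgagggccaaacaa
Atg3 (chr16:45158738-45158783, plus strand): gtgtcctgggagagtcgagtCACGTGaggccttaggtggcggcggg
Bnip3 (chr7:138909589-138909634, minus strand): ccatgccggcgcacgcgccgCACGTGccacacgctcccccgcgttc
The 4 Lamp1 copies began between 61 and 15 bases before the RefSeq start, and the Ctsd, Atg3 and Bnip3 copies shown began 98, 71 and 108 bases before it. The FoxO motif GTAAACA, searched on both strands because FoxO factors are known regulators of muscle autophagy, was in 0 of the 35 genes, against 4.05% of all genes, and the cAMP response element TGACGTCA was in Atg5 alone, against 2.03% of all genes.

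Total counts per library lay between 15354396 and 17317856, and counts of a typical gene varied between same-age mice by a biological coefficient of 0.164. All 8 skeletal muscle markers were found in every library, from myoglobin (Mb) at no less than 77.7 CPM (counts scaled to library size with TMM factors) to Acta1, the skeletal actin, at no less than 20876 CPM. Oxidative fibre genes set 3 libraries apart: Myh2, a myosin heavy chain of fast oxidative fibres, was at 0.751 CPM in 6-month mouse 2, at 4395 CPM in 15-month mouse 1 and at 3642 CPM in 21-month mouse 3. It was at 2825 CPM in 15-month mouse 2 and between 530 and 1611 CPM in the other 5 libraries, so the 3 libraries are the extremes of a graded range. The 9 slow fibre markers summed to 94.8, 1215 and 1112 CPM in these libraries and to between 216 and 646 CPM in the other 6, and Myh7, the slow myosin, was at 0.438 CPM in the first. All 10 macrophage markers were detected, and their summed level ran from 182 to 282 CPM at 6 months, from 94.4 to 210 CPM at 15 months and from 121 to 197 CPM at 21 months. In whole muscle, fewer cells of a type and less RNA per cell cannot be told apart.

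The genes spanned a wide range of levels. On a scale of CPM per kb of transcript, which allows genes to be compared, Ctsd led with a mean of 438 ± 46.0 (SD, n = 9 libraries), followed by Sqstm1 at 433 ± 56.7, Bnip3 at 351 ± 58.6, Pink1 at 321 ± 32.0 and Lamp1 at 247 ± 18.0. Ctsd, a lysosomal aspartic protease, and Sqstm1, a cargo receptor for ubiquitinated protein, differed by less than their spread over libraries. The 5 ATG8 genes lay below them, between 57.8 for Gabarapl2 and 127 for Gabarap. At the other end stood Uvrag (3.67), Atg7 (3.99), Pik3r4 (4.10), Atg14 (4.35) and Atg4c (4.87), which encode a lipid kinase partner, the activating enzyme of both conjugation reactions, 2 lipid kinase subunits and a protease of ATG8 proteins. Neighbours in that low group also lay within each other's spread.

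**Figure D1:**
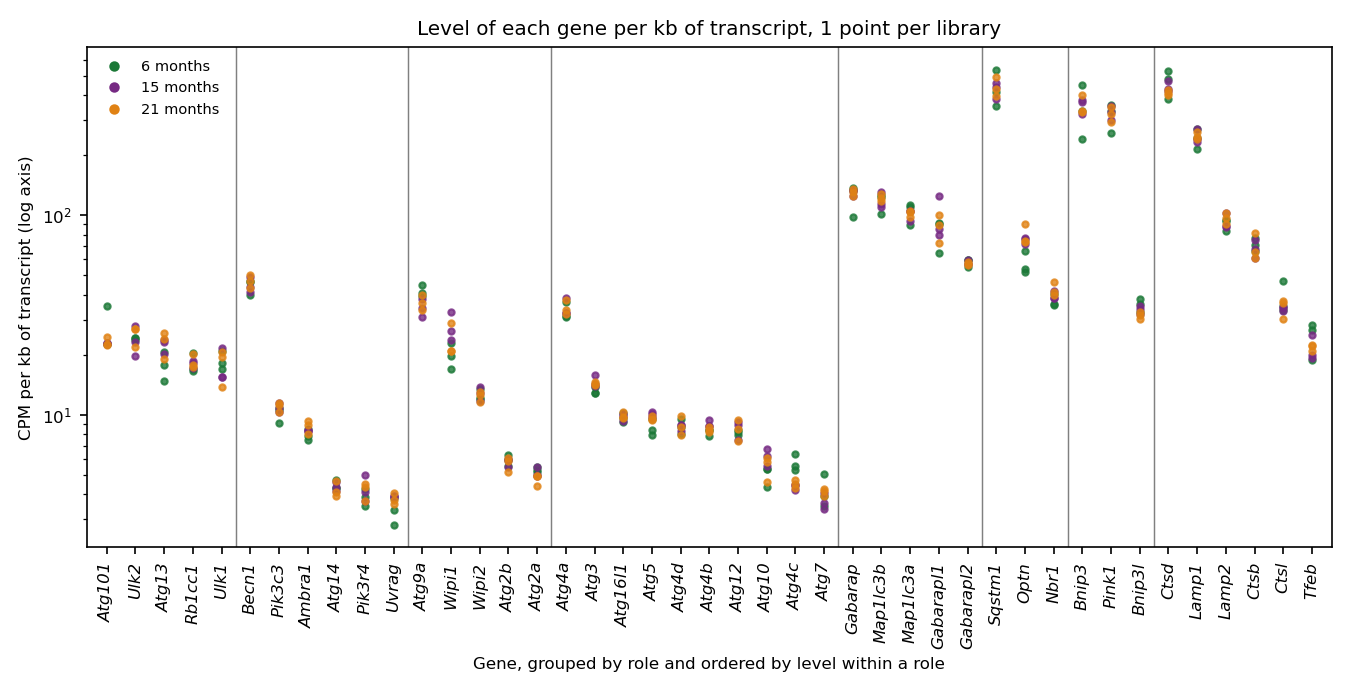
Level of each of the 43 genes in CPM per kb of transcript on a log axis, 1 point per library, coloured by age, with genes grouped by role and ordered within it. Genes of cargo receptors, mitophagy and the lysosome reach above 200 CPM per kb, the lipid kinase and conjugation groups hold the lowest genes, and the 3 ages overlie each other for most genes.

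At 21 against 6 months 0 of the 43 genes passed the threshold of edgeR (adjusted p under 0.05, smallest adjusted p = 0.204), beside 0.0153% of all genes tested. At an unadjusted p under 0.05 there were 3 genes (6.98%), beside 10.6% of all genes. Of these, 2 were higher at 21 months, Optn and Atg13 (beside 5.14% of all genes), and 1 was lower, Atg4c (beside 5.5%). The groups of mice did not overlap for 5 genes (11.6%), beside 16.1% of all genes. Those 5 were Optn and Atg3 on the higher side (beside 7.81% of all genes) and Atg4c, Atg2a and Bnip3l on the lower side (beside 8.31%). DESeq2 called 1 of the 43 genes, Optn, beside 1.53% of all genes, and had 3 at an unadjusted p under 0.05, beside 9.77% of all genes. Log2 fold changes ran from -0.34 to 0.47 with a median of 0.04, against a median of -0.01 over all genes tested, and 27 of the 43 were above 0. Without the 3 libraries set apart by oxidative fibre genes edgeR also called 0 of the 43, and the genes at an unadjusted p under 0.05 were 3, namely Optn, Atg13 and Nbr1. Their number was 6 without 6-month mouse 2 and 5 without 6-month mouse 3. The shares of all genes above belong to all 9 libraries and are not a background for these smaller sets.

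At 15 against 6 months edgeR again called 0 of the 43 genes (smallest adjusted p = 0.293), beside 0.00767% of all genes, and DESeq2 called 0, beside 0.874%. An unadjusted p under 0.05 was found for 6 genes (14.0%), beside 10.3% of all genes, namely Optn, Atg13, Wipi1 and Atg5 on the higher side (beside 4.91%) and Atg4c and Atg9a on the lower side (beside 5.38%). With DESeq2 there were 5 such genes, beside 9.58% of all genes. Groups did not overlap for 9 genes (20.9%), beside 13.8% of all genes: Uvrag, Wipi1, Atg3, Atg4b, Atg5, Atg10 and Optn were higher (beside 6.64%), and Atg9a and Atg4c were lower (beside 7.14%). The median log2 fold change was 0.01 in a range from -0.39 to 0.47. Without the 3 libraries edgeR called 0 and the genes at an unadjusted p under 0.05 were 4, namely Atg13, Uvrag, Atg4c and Atg5. They were 3 without 15-month mouse 1 and 3 without 15-month mouse 2. Here too the shares of all genes belong to the fit of all 9 libraries. This comparison and the one before it use the same 6-month mice, so a gene that lay low or high in those mice appears in both.

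At 21 against 15 months edgeR called 0 of the 43 genes (smallest adjusted p rounds to 1), beside 0% of all genes, and 0 had an unadjusted p under 0.05, beside 1.82% of all genes (1.08% higher and 0.736% lower). DESeq2 called 0, beside 0.023%, and also had 0 at an unadjusted p under 0.05, beside 1.43%, as did edgeR without the 3 libraries. Atg4b, a protease that trims ATG8 proteins, was the single gene whose groups did not overlap, beside 6.14% of all genes (2.84% higher and 3.3% lower). Over all 3 ages together the F-test of edgeR called 0 of the 43 genes, beside 0% of all genes, and 2 genes had an unadjusted p under 0.05, beside 8.55%. The likelihood ratio test of DESeq2 over the 3 ages called 0 of the 43 genes, beside 1.56% of all genes.

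The intervals show how large a difference these data still allow. The 95% interval lay within 1.5-fold in either direction for 40 of the 43 genes at 21 against 6 months, for 37 at 15 against 6 months and for 41 at 21 against 15 months. Among the 8723 genes at least as abundant as the least abundant of the 43, the share within 1.5-fold was 79.4%, 78.7% and 87.1%, and over all genes tested it was 59.9%, 59.9% and 67.3%. The genes outside were Atg13, Optn and Wipi1 in the first comparison, these 3 with Atg4c, Atg10 and Gabarapl1 in the second, and Wipi1 and Gabarapl1 in the third. For those genes a difference above 1.5-fold was neither shown nor excluded by the interval.

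**Figure D2:**
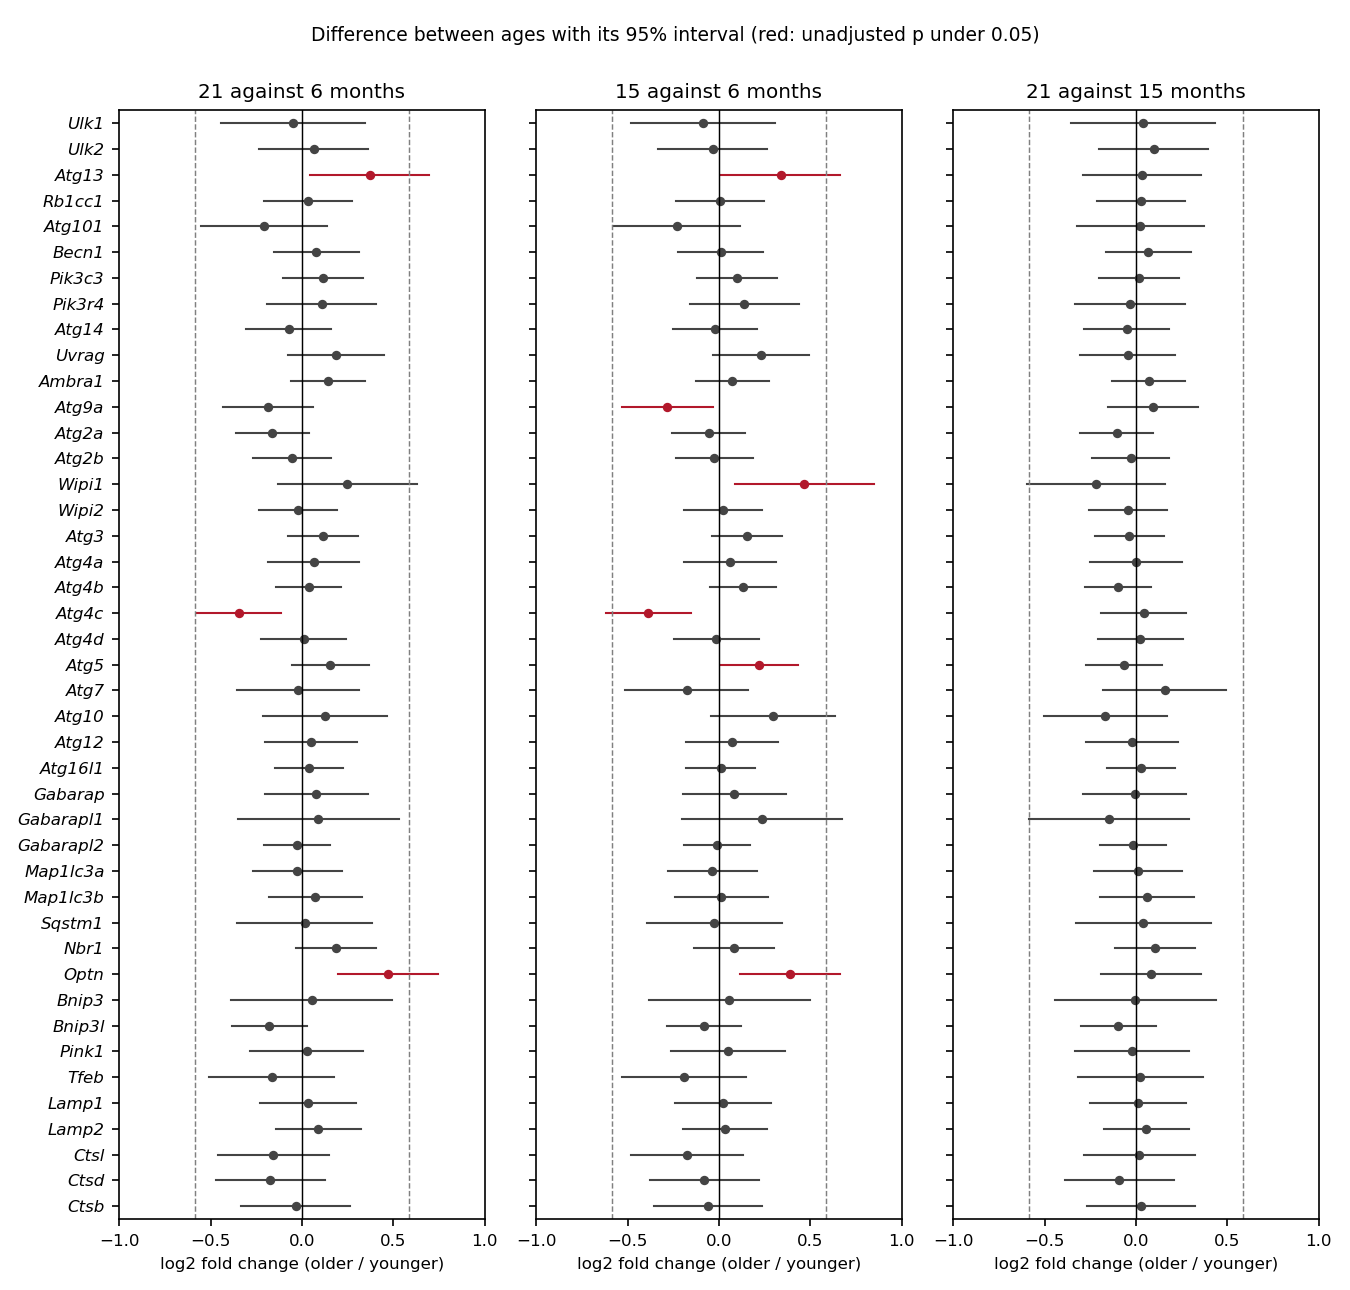
Log2 fold change (older over younger) of each gene with its 95% interval in the 3 comparisons, red where the unadjusted p was under 0.05, with dashed lines at 1.5-fold. Most intervals cross 0 and stay inside the dashed lines, and the red genes are 3 at 21 against 6 months, 6 at 15 against 6 months and 0 at 21 against 15 months.

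Of the 5 genes of the initiation complex, 1 had an unadjusted p under 0.05 at 21 against 6 months, beside 10.6% of all genes. Fold changes were above 0 for 3 of the 5, beside 48% of all genes. Counts out of 5 genes cannot tell the role from these shares. Atg13, which tethers the ULK1 kinase to its partners (Entrez ID 51897, chromosome 2, 91674612 to 91710597 in GRCm38), was measured at 63.5, 73.7 and 52.9 CPM in the 3 mice at 6 months, at 72.5, 83.2 and 84.7 CPM at 15 months and at 86.1, 91.8 and 68.1 CPM at 21 months. The lowest value was in 6-month mouse 3, and the groups overlapped in each comparison. The fitted log2 difference from 6 months was 0.37 at 21 months (SE 0.15, adjusted p = 0.400) and 0.34 at 15 months (SE 0.15, adjusted p = 0.466). Without the 3 libraries set apart by oxidative fibre genes it was 0.61 (adjusted p = 0.167) and 0.53 (adjusted p = 0.266). Over all alternatives its adjusted p at 21 against 6 months ran from 0.157 to 0.692.

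Ulk2, a kinase related to ULK1 and the most abundant of this group in CPM, stood at 140, 139 and 137 CPM at 6 months, at 113, 132 and 160 CPM at 15 months and at 154, 155 and 125 CPM at 21 months. The 6-month mice lay close together and inside the range of both older groups. Ulk1 spread most among the 21-month mice, from 60.5 to 91.1 CPM. Atg101, a stabiliser of the complex, stood at 44.4 CPM in 6-month mouse 2 and between 28.3 and 31.3 CPM in the other 8 libraries. Rb1cc1, the scaffold of the complex, ranged from 126 to 155 CPM, with both extremes among the 6-month mice.

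None of the 6 genes of the lipid kinase complex had an unadjusted p under 0.05 at 21 against 6 or 15 against 6 months, beside 10.6% and 10.3% of all genes. Fold changes were above 0 for 5 of 6 in each, beside 48% and 48.6% of all genes. The difference from these shares was not tested. Becn1, the regulatory subunit beclin 1, stood at 69.1, 69.7 and 59.7 CPM at 6 months, at 65.0, 61.8 and 73.2 CPM at 15 months and at 70.1, 74.7 and 64.7 CPM at 21 months. Its groups overlapped throughout, and its 95% interval at 21 against 6 months ran from -0.16 to 0.31 on the log2 scale. Of its exonic bases, 3104 overlap Cntd1 on the opposite strand, and no source used here says whether counting used the strand. Uvrag, a partner of beclin 1 in later steps, ranged from 14.5 to 19.7 CPM at 6 months and from 20.0 to 20.3 CPM at 15 months, so these groups did not overlap, and the log2 difference was 0.23 (SE 0.12, adjusted p = 0.538). Pik3c3, the catalytic subunit, Pik3r4, Atg14 and Ambra1 had log2 fold changes between -0.07 and 0.14 in both comparisons with 6 months.

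The genes that supply and shape the membrane held values on both sides of 0. Wipi1, which binds the lipid made by that kinase (Entrez ID 52639, chromosome 11, 109573521 to 109611389), was measured at 47.0, 34.7 and 40.4 CPM at 6 months, at 66.8, 53.8 and 48.4 CPM at 15 months and at 42.8, 42.9 and 59.4 CPM at 21 months. All 15-month mice lay above all 6-month mice, and the 21-month group overlapped both. The log2 difference from 6 months was 0.47 at 15 months (SE 0.17, adjusted p = 0.392), the largest of the 43 genes in that comparison, and 0.25 at 21 months (SE 0.17, adjusted p = 0.636). The lowest library, 6-month mouse 2, and the highest 2, 15-month mouse 1 and 21-month mouse 3, are those with the lowest and highest Myh2 and slow fibre sums, whose part in the Wipi1 values was not tested. Without those 3 libraries the log2 fold change was 0.22 (adjusted p = 0.512) at 15 against 6 months and -0.03 (adjusted p = 0.944) at 21 against 6 months.

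Atg9a, the membrane protein of the vesicles that seed the autophagosome, stood at 160, 181 and 164 CPM at 6 months, at 124, 138 and 153 CPM at 15 months and at 147, 162 and 135 CPM at 21 months. All 15-month mice lay below all 6-month mice, with a log2 difference of -0.28 (SE 0.11, adjusted p = 0.418), which was -0.15 (adjusted p = 0.618) without the 3 libraries. At 21 against 6 months the groups overlapped, and the value was -0.19 (SE 0.11, adjusted p = 0.583). Atg2a, a lipid transfer protein, stood at 33.1, 33.8 and 35.0 CPM at 6 months, at 31.7, 31.3 and 35.1 CPM at 15 months and at 31.6, 31.6 and 28.0 CPM at 21 months. Its 21-month mice lay below its 6-month mice, and the fitted log2 difference was -0.16 (SE 0.09, adjusted p = 0.560). Atg2b and Wipi2 had log2 fold changes between -0.06 and 0.02 in both comparisons with 6 months.

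Among the 10 conjugation genes, Atg4c had the lowest p in both comparisons with 6 months. Atg4c, one of 4 related proteases that process ATG8 proteins (Entrez ID 242557, chromosome 4, 99189159 to 99297258), was measured at 16.6, 18.9 and 15.8 CPM at 6 months, at 13.3, 12.6 and 13.3 CPM at 15 months and at 14.1, 13.5 and 12.8 CPM at 21 months. All 6 older mice lay below all 3 mice of 6 months. The mean was 17.1 ± 1.60 CPM at 6 months, 13.1 ± 0.435 at 15 months and 13.5 ± 0.609 at 21 months (SD, n = 3 each). On the log2 scale it differed from 6 months by -0.34 at 21 months (SE 0.10, adjusted p = 0.261, edgeR) and by -0.39 at 15 months (SE 0.10, adjusted p = 0.293). Without the 3 libraries set apart by oxidative fibre genes these were -0.23 (adjusted p = 0.459) and -0.32 (adjusted p = 0.372). Over all alternatives the adjusted p stayed at 0.155 or above.

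The other 3 proteases of that family gave smaller values. Atg4a, the most abundant of the conjugation genes in CPM, stood at 68.6, 81.2 and 68.3 CPM at 6 months, at 71.4, 71.6 and 84.7 CPM at 15 months and at 83.2, 74.1 and 70.7 CPM at 21 months, with overlapping groups and a log2 fold change of 0.06 in both comparisons with 6 months. Atg4b stood at 34.9, 35.2 and 32.9 CPM at 6 months, at 36.8, 39.4 and 36.6 CPM at 15 months and at 35.2, 34.2 and 36.2 CPM at 21 months. All 15-month mice therefore lay above the mice of both other ages, with a log2 fold change of 0.13 at 15 against 6 months (adjusted p = 0.605) and of -0.10 at 21 against 15 months. Atg4d had log2 fold changes of 0.01 and -0.01 against 6 months, and 1405 of its exonic bases overlap Kri1 on the opposite strand.

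Atg5, which joins Atg12 in the first conjugate, stood at 19.8, 22.4 and 18.7 CPM at 6 months, at 23.9, 24.2 and 22.9 CPM at 15 months and at 23.3, 22.3 and 22.2 CPM at 21 months. The 15-month mice lay above the 6-month mice, and the 21-month mice overlapped them through 6-month mouse 2. The log2 difference from 6 months was 0.22 at 15 months (SE 0.09, adjusted p = 0.460) and 0.15 at 21 months (SE 0.09, adjusted p = 0.595). Atg10, the enzyme that joins Atg12 to Atg5, stood at 8.48, 6.88 and 8.52 CPM at 6 months, at 9.86, 10.7 and 8.78 CPM at 15 months and at 9.19, 7.28 and 9.63 CPM at 21 months. The 15-month mice lay above those of 6 months, and the log2 difference was 0.29 (SE 0.15, adjusted p = 0.546). Atg3, which attaches ATG8 proteins to lipid, lay higher in both older groups than in any 6-month mouse, with log2 fold changes of 0.12 (adjusted p = 0.669) at 21 and 0.15 (adjusted p = 0.576) at 15 months. Atg7, Atg12 and Atg16l1 overlapped between ages, and their fold changes lay between -0.18 and 0.07 against 6 months.

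The 5 ATG8 genes, whose proteins coat the autophagosome membrane, all had overlapping groups and no unadjusted p under 0.05. Such a p was found for 10.6%, 10.3% and 1.82% of all genes in the 3 comparisons, shares from which 5 genes cannot be told apart. Map1lc3b, the gene of the widely used autophagosome marker LC3B, stood at 209, 203 and 167 CPM at 6 months, at 187, 181 and 216 CPM at 15 months and at 212, 202 and 196 CPM at 21 months. Its mean was 193 ± 22.8, 195 ± 19.0 and 203 ± 8.11 CPM at the 3 ages in turn (SD, n = 3 each). The log2 fold change at 21 against 6 months was 0.07, with a 95% interval from -0.18 to 0.33. By the ratio of the highest to the lowest library, Gabarapl2 varied least of all 43 genes, from 92.8 to 100 CPM, and Gabarapl1 most, from 58.4 CPM in 6-month mouse 3 to 113 CPM in 15-month mouse 1. All 5 ATG8 genes had their lowest value in 6-month mouse 3.

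The cargo receptors gave the gene with the smallest p. Optn, which encodes optineurin, a receptor for damaged mitochondria and bacteria (Entrez ID 71648, chromosome 2, 5020521 to 5064399), was measured at 166, 130 and 135 CPM at 6 months, at 191, 179 and 194 CPM at 15 months and at 185, 226 and 185 CPM at 21 months. All 6 older mice lay above all 3 mice of 6 months. Its mean was 144 ± 19.2 CPM at 6 months, 188 ± 7.67 at 15 months and 199 ± 23.7 at 21 months (SD, n = 3 each). With edgeR the log2 difference from 6 months was 0.47 at 21 months (SE 0.12, adjusted p = 0.204) and 0.39 at 15 months (SE 0.12, adjusted p = 0.348). With DESeq2 the first of these passed the threshold (log2 fold change 0.47, adjusted p = 0.0322), and over all alternatives its adjusted p ran from that value to 0.488. Without the 3 libraries set apart it was 0.46 (adjusted p = 0.286) and 0.31 (adjusted p = 0.468).

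Sqstm1, the most abundant gene of the 43 after Ctsd per kb, stood at 846, 1089 and 713 CPM at 6 months, at 888, 781 and 934 CPM at 15 months and at 1004, 869 and 805 CPM at 21 months. The 2 most distant values were both from 6-month mice, and the older mice lay between them. Its log2 fold change at 21 against 6 months was 0.02, with a 95% interval from -0.35 to 0.39, and 580 of its exonic bases overlap Mrnip on the opposite strand. Nbr1, a receptor related to it, stood at 156, 176 and 154 CPM at 6 months, at 167, 180 and 167 CPM at 15 months and at 200, 179 and 173 CPM at 21 months. The groups overlapped, and the log2 fold change at 21 against 6 months was 0.19 (SE 0.10, adjusted p = 0.535).

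Of the 3 mitophagy genes, Bnip3l, a receptor on the outer mitochondrial membrane, stood at 117, 124 and 106 CPM at 6 months, at 111, 104 and 114 CPM at 15 months and at 102, 98.6 and 106 CPM at 21 months. The 21-month mice lay just below the 6-month mice, 105.9 against 106.2 CPM at the closest, and the log2 difference was -0.18 (SE 0.09, adjusted p = 0.520). Pink1, the kinase that tags depolarised mitochondria, stood at 611, 567 and 443 CPM at 6 months, at 560, 515 and 601 CPM at 15 months and at 502, 550 and 598 CPM at 21 months. Its groups overlapped, with a log2 fold change of 0.03 at 21 against 6 months. Bnip3 ranged from 299 to 557 CPM within the 6-month mice alone and from 395 to 496 CPM in the 6 older mice, so that its 95% interval at 21 against 6 months ran from -0.39 to 0.49.

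**Figure D3:**
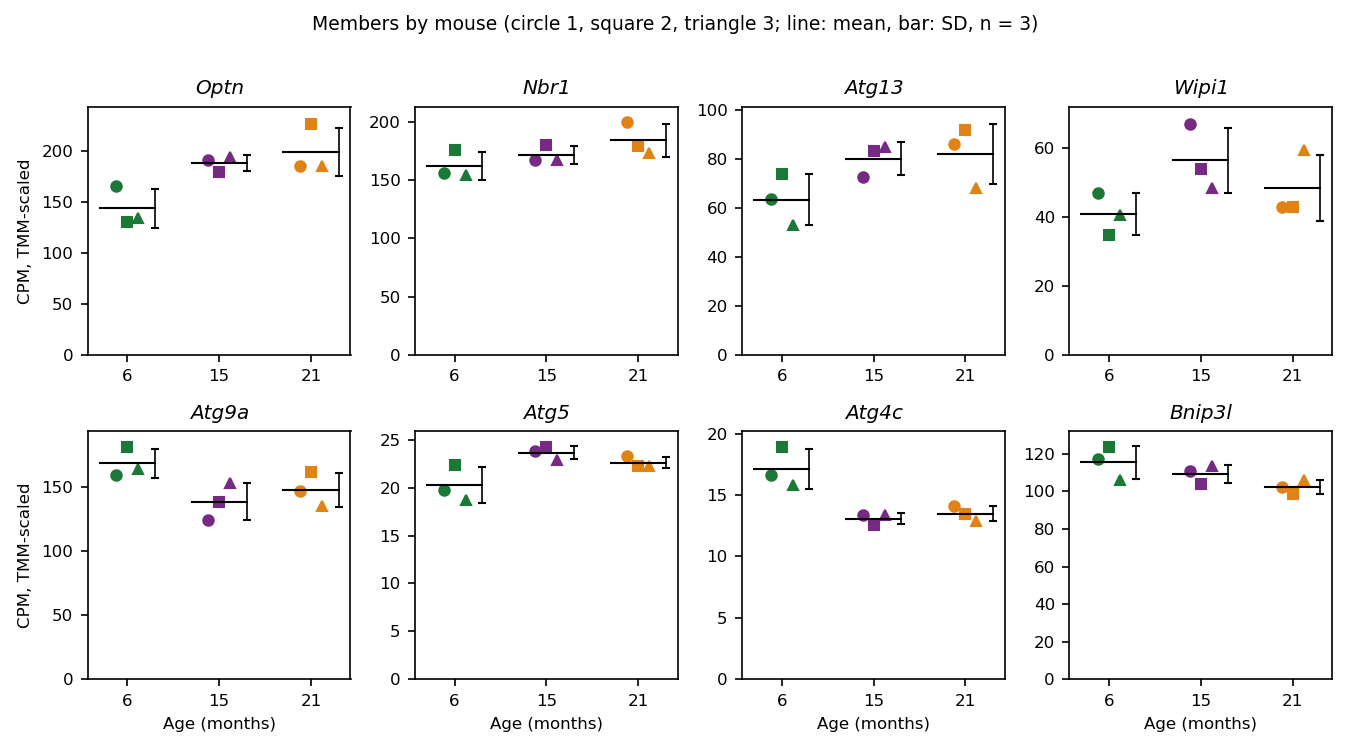
CPM in each mouse by age in months for the genes Optn, Nbr1, Atg13, Wipi1, Atg9a, Atg5, Atg4c and Bnip3l, with the mean as a line and the SD as a bar (n = 3). All 6 older mice lie above the 6-month mice for Optn and below them for Atg4c, and the other panels overlap in at least 1 comparison with 6 months.

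The 6 genes of the lysosome and TFEB had overlapping groups in all 3 comparisons. Groups did not overlap for 16.1%, 13.8% and 6.14% of all genes, shares from which 6 genes cannot be told apart. Ctsd stood at 970, 1071 and 773 CPM at 6 months, at 862, 851 and 947 CPM at 15 months and at 855, 831 and 809 CPM at 21 months. The 6-month mice spanned both the highest and the lowest value, and the SD was 151 CPM at 6 months, 52.5 at 15 months and 23.0 at 21 months. The log2 fold change at 21 against 6 months was -0.17 (SE 0.13, adjusted p = 0.687). Tfeb itself ranged from 43.7 to 64.8 CPM at 6 months, from 44.4 to 58.3 CPM at 15 months and from 48.5 to 51.7 CPM at 21 months, with log2 fold changes of -0.17 and -0.19 at 21 and 15 against 6 months. Without 6-month mouse 3, the lowest library for Tfeb, these were -0.31 (adjusted p = 0.318) and -0.34 (adjusted p = 0.298). Both then had an unadjusted p under 0.05. Without 6-month mouse 2, the highest library for Tfeb, neither had one.

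Lamp1 and Lamp2, the main glycoproteins of the lysosomal membrane, had log2 fold changes of 0.03 and 0.09 at 21 against 6 months, with 95% intervals from -0.23 to 0.30 and from -0.14 to 0.32. Ctsl and Ctsb, cysteine proteases of the lysosome, had -0.16 and -0.03. Macrophages are also rich in cathepsins, and all 10 macrophage markers had log2 fold changes below 0 in both comparisons with 6 months. Their median was -0.35 at 21 and -0.51 at 15 against 6 months. An unadjusted p under 0.05 was found for 3 and 4 of the 10, all lower. Of all genes tested, 5.5% and 5.38% had such a p on the lower side, and edgeR called 0 of the 10 markers. The part of macrophages in the cathepsin values was not tested. The 8 genes with the palindrome had a median log2 fold change of 0.01 at 21 against 6 months. The 27 other genes with a promoter entry had 0.06. An unadjusted p under 0.05 was found for 0 of the 8 and 3 of the 27, beside 10.6% of all genes. At 15 against 6 months it was found for Atg5 alone of the 8 and for 5 of the 27, beside 10.3%. The difference between the sets was not tested.

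Much of the range over libraries was already found within 1 age. The highest of the 9 libraries was 1.30 times the lowest in the median gene, from 1.08 times for Gabarapl2 to 1.93 times for Gabarapl1. Within 6 months alone the median ratio of the highest to the lowest mouse was 1.20, within 15 months 1.13 and within 21 months 1.16. The 8723 genes at least as abundant as the least abundant of the 43 had medians of 1.23, 1.19 and 1.18. The widest of the 3 ages was 6 months for 23 genes, 15 months for 9 and 21 months for 11. A ratio above 1.25 was found for 17, 6 and 7 of the 43 genes at the 3 ages in turn, and for 45.1%, 35.1% and 32.1% of those 8723 genes.

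A single mouse was lowest for many of the genes. The library of 6-month mouse 3 held the lowest of the 9 values for 19 of the 43 genes (44.2%). It was lowest for 15.8% of the 8723 genes at least as abundant as the least abundant of the 43, a set not matched in abundance. Besides the 5 ATG8 genes these were Atg13, Becn1, Uvrag, Atg3, Atg4a, Atg4b, Atg5, Sqstm1, Nbr1, Bnip3, Pink1, Tfeb, Lamp1 and Ctsd. The same mouse was highest for 0 of the 43, against 13.4% of those 8723 genes. In the other direction, 6-month mouse 2 was highest for 14 of the 43 genes (32.6%), against 24.3% of those 8723 genes, among them Atg101, Sqstm1, Bnip3, Ctsl and Ctsd. These shares describe libraries and were not tested.

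**Figure D4:**
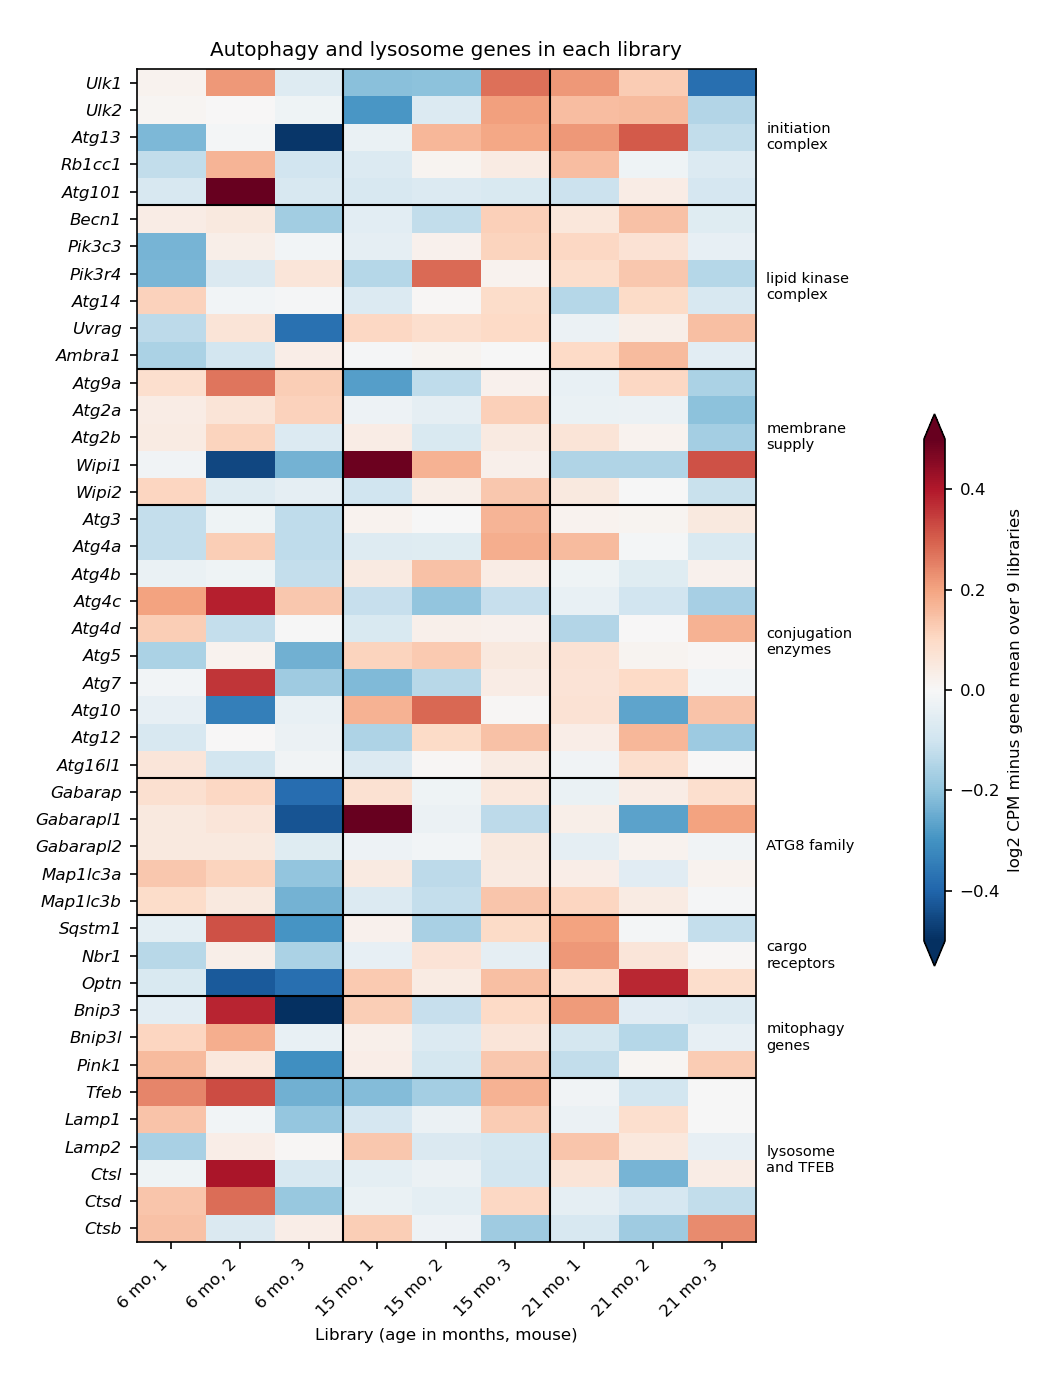
Log2 CPM of each gene minus its mean over the 9 libraries, by library (columns, age and mouse) and gene (grouped by role), with colours limited to 0.5 in either direction. The column of 6-month mouse 3 is mostly blue and lowest for 19 of 43 genes, the rows of Optn and Atg4c change colour between 6 months and the older ages, and Wipi1 and Gabarapl1 are darkest red in 15-month mouse 1.

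Summed over the 43 genes, the level was 6554, 7045 and 5574 CPM in the 6-month mice, 6400, 6115 and 6717 CPM at 15 months and 6602, 6387 and 6276 CPM at 21 months. The means were 6391 ± 749, 6411 ± 301 and 6422 ± 166 CPM (SD, n = 3 each), so the ages differed by far less than the mice of 6 months did among themselves. Leaving out 6-month mouse 3 moved the median log2 fold change at 21 against 6 months from 0.04 to -0.03 and left 0 genes called. The genes with an unadjusted p under 0.05 were then Optn and Atg4c with Bnip3l, Tfeb and Ctsd, the last 3 on the lower side. Mouse 3 of 6 months held the lowest value for Tfeb and Ctsd, so leaving it out raises their 6-month level. Leaving out 6-month mouse 2, the highest library for those 3 genes, gave Optn and Atg4c with Atg13, Uvrag, Atg5 and Nbr1 instead. No share of all genes is given for either of these smaller fits.

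**Figure D5:**
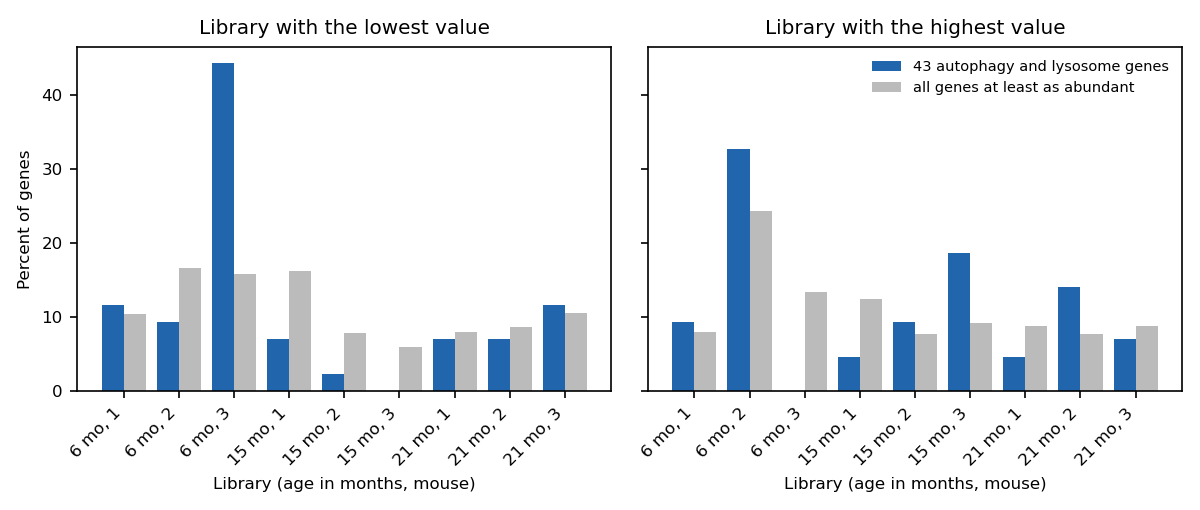
Percent of genes for which each library (age in months, mouse) held the lowest value (left) or the highest value (right) of the 9 libraries. The 43 genes are in blue, and the 8723 genes at least as abundant as the least abundant of the 43 are in grey. The bar of 6-month mouse 3 is 44.2% against 15.8% on the left and 0% against 13.4% on the right, and 6-month mouse 2 leads on the right with 32.6% against 24.3%.

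A further list of 130 genes of the same pathway, all tested, covered the proton pump of the lysosome (V-ATPase), other lysosomal enzymes and membrane proteins, fusion with the autophagosome, regulators and other autophagy factors. With edgeR 0 of 130 passed in each of the 3 comparisons. An unadjusted p under 0.05 was found for 14 genes at 21 against 6 months (10.8%, 9 higher and 5 lower, beside 10.6% of all genes). It was found for 14 at 15 against 6 months (10.8%, 9 higher and 5 lower, beside 10.3%) and for 1 at 21 against 15 months (0.769%, beside 1.82%). DESeq2 called 2, 1 and 0 of them, beside 1.53%, 0.874% and 0.023% of all genes, and had 15, 12 and 1 at an unadjusted p under 0.05, beside 9.77%, 9.58% and 1.43%. Groups did not overlap for 26, 21 and 5 of the 130 genes (20.0%, 16.2% and 3.85%), beside 16.1%, 13.8% and 6.14% of all genes, so these shares were near the background. Median log2 fold changes were -0.01, -0.01 and -0.001.

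The smallest p of this list belonged to Trp53inp1, a stress-induced protein that binds ATG8 proteins. It stood at 60.0, 60.3 and 44.9 CPM at 6 months, at 33.8, 30.6 and 33.4 CPM at 15 months and at 32.8, 34.5 and 27.9 CPM at 21 months. All 6 older mice lay below all 3 mice of 6 months. With edgeR the log2 difference from 6 months was -0.80 at 21 months (SE 0.13, adjusted p = 0.0682) and -0.76 at 15 months (SE 0.13, adjusted p = 0.194). With DESeq2 both passed the threshold (adjusted p = 0.000105 and 0.000595), and over all alternatives the adjusted p ran up to 0.249 and 0.607.

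Bag3, a chaperone partner that sends damaged muscle proteins to autophagy, stood at 157, 151 and 150 CPM at 6 months, at 255, 200 and 178 CPM at 15 months and at 211, 203 and 236 CPM at 21 months. All 6 older mice lay above the 6-month mice, by log2 differences of 0.51 at 21 months (SE 0.13, adjusted p = 0.204, edgeR) and 0.47 at 15 months (SE 0.13, adjusted p = 0.316). DESeq2 called the first of these (adjusted p = 0.0297), and its adjusted p reached 0.474 among the alternatives. The highest Bag3 values at 15 and 21 months were in 2 of the 3 libraries set apart by oxidative fibre genes. Without those 3 libraries the log2 differences were 0.43 (adjusted p = 0.206) at 21 months and 0.30 (adjusted p = 0.357) at 15 months. Hspb8, a small heat shock protein that works with Bag3, had the largest values at 21 months, at 964, 827 and 772 CPM, against 680, 644 and 760 CPM at 15 months and 647, 732 and 722 CPM at 6 months. Its log2 fold change at 21 against 15 months was 0.30 (SE 0.13), the 1 unadjusted p under 0.05 of the 130 genes in that comparison. Such a p was found for 1.82% of all genes, and with edgeR no adjusted p of the 130 genes there was under 0.99987.

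In the V-ATPase, 9 of 16 subunit genes were above 0 at 21 against 6 months with a median log2 fold change of 0.11, and 4 of 16, all higher, had an unadjusted p under 0.05, beside 10.6% of all genes and 5.14% on the higher side: Atp6v1b2, Atp6v0e, Atp6v1h and Atp6v1a. Atp6v1b2, a subunit of the catalytic head, stood at 94.0, 87.0 and 86.9 CPM at 6 months, at 127, 97.8 and 95.4 CPM at 15 months and at 129, 123 and 112 CPM at 21 months. Both older groups lay above the 6-month mice, by log2 differences of 0.44 at 21 months (SE 0.12, adjusted p = 0.227) and 0.26 at 15 months (SE 0.12, adjusted p = 0.505). Of the 36 other lysosomal enzymes, 24 were below 0 at 21 against 6 months with a median of -0.06, and 0 had an unadjusted p under 0.05.

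Among regulators, Fnip1, a folliculin partner in amino acid sensing, stood at 96.5, 92.1 and 110 CPM at 6 months, at 172, 129 and 133 CPM at 15 months and at 126, 123 and 162 CPM at 21 months. Both older groups lay above the 6-month mice, with log2 fold changes of 0.46 (SE 0.15, adjusted p = 0.291) and 0.54 (SE 0.15, adjusted p = 0.293) at 21 and 15 months. Without the 3 libraries set apart by oxidative fibre genes these were 0.27 (adjusted p = 0.356) and 0.35 (adjusted p = 0.312). Rragb, a small GTPase that recruits the kinase mTOR to lysosomes, ranged from 1.94 to 2.51 CPM at 6 months and from 2.73 to 4.74 CPM at 15 months, and the log2 difference was 0.77 (SE 0.23, adjusted p = 0.341). At 21 against 15 months Lgmn, a lysosomal protease, Npc1, a cholesterol transporter of the lysosome, and Epg5, a tether for fusion, completed the 4 smallest p with log2 fold changes of 0.30, 0.46 and -0.19, each with an adjusted p that rounds to 1.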

How the data were processed

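RNA was extracted with TRIzol and selected with oligo(dT) beads, per the labels' protocols. The authors deposited 1 table of estimated counts per gene for the 9 libraries, of which 90.0 to 90.7% were whole within 0.005. The submitters' processing notes name the genome build mm10. The sources used here give no aligner, no counter and no use of strand. Columns were matched to samples by title, and 0 columns belonged to other samples. The design text describes 3 mice per age, so the spread is between mice.

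Estimated counts were rounded to whole numbers and filtered with filterByExpr (minimum count 10), which left 13044 genes. A quasi-likelihood model with age as its 1 factor was fitted in edgeR 4.0.16 under R 4.3.3, with all 9 libraries in the fit, TMM factors of 0.923 to 1.05, and 6 residual and 4.24 prior degrees of freedom. Benjamini-Hochberg adjustment ran over the 13044 genes with a threshold of 0.05, and the 95% intervals come from that fit without adjustment. Total counts of 15354396 to 17317856 limit the precision for low genes. The procedure was also run on simulated counts that gave every gene the same spread, unlike these data, and the outcome is not reported here.

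The 43 genes and all lists were chosen with earlier results of these data known. Values in every library are printed for genes past the threshold, for the 5 smallest p per comparison and for the most abundant gene (CPM) of each of the 8 roles. Of the 130 further genes, the 4 smallest p per comparison are named. Other genes, named for their range, their groups or a dependence on 1 library, were chosen after their values were seen. The neutrophil marker Ly6g was not matched. Promoters are from RefSeq (GRCm38.p6). CPM per kb uses transcript lengths of GENCODE M21. Alternatives were DESeq2 1.42.0, RLE and total count scaling, 2 other filters, a replicate block, voom weights (limma 3.58.1), only the 2 ages compared, and leaving out each library or the 3 set apart by oxidative fibre genes.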

Additional observations from a re-analysis of the deposited data

How the results depend on the processing

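No alternative called any of the 43 genes in any comparison, with the single exception of DESeq2 at 21 against 6 months, which called 1, Optn. With the replicate number as a block edgeR called 0 in each comparison, and the genes at an unadjusted p under 0.05 were 3, 5 and 0. The labels give the mice of each age the same numbers. Deviations of same-numbered mice from the age means correlated by -0.19, 0.20 and 0.02 for 21 against 6 months. They correlated by 0.43, -0.11 and -0.04 for 15 against 6 months and by -0.18, 0.07 and -0.47 for 21 against 15 months. Differently numbered pairs ran from -0.33 to 0.37, from -0.39 to 0.37 and from -0.40 to 0.44 in these comparisons. Same-numbered values thus had both signs, and only 0.43 and -0.47 lay outside those ranges. Unadjusted counts were 2 to 6, 3 to 6 and 0 to 1 when 1 library was left out. Total count scaling raised the first from 3 to 8 and the voom weights to 6. The shares of all genes under these alternatives are not given here, so the counts have no background beside them. Total count scaling moved the median of the 43 genes to 0.12 at 21 against 6 months and 0.088 at 15 against 6 months, while the median of all genes moved to 0.072 and 0.068. Leaving out the 3 libraries set apart by oxidative fibre genes moved the second to 0.079. When each library was left out in turn, the medians ran from -0.030 to 0.063 at 21 against 6 months, from -0.033 to 0.050 at 15 against 6 months and from -0.026 to 0.038 at 21 against 15 months. Each reversed log2 fold change had passed no threshold in its own comparison. With voom weights the reversals were Pink1 at 21 against 6 months (-0.062) and Becn1 (-0.039), Map1lc3b (-0.050) and Pink1 (-0.040) at 15 against 6 months. With total count scaling they were Atg2a (0.017), Ulk2 (0.035) and Sqstm1 (0.057) at 15 against 6 months. Without the 3 libraries they were Wipi1 (-0.028), Atg10 (-0.046) and Pink1 (-0.0023) at 21 against 6 months, and Ulk2 (0.082), Sqstm1 (0.14) and Ctsd (0.046) at 15 against 6 months. Atg4a at 21 against 15 months gave -0.00067 with no filter and -0.00023 with only the 2 ages in the fit. Leaving out 1 library at a time, the values at 21 against 6 months ran from -0.0061 to 0.15 for Atg4a, -0.013 to 0.14 for Map1lc3b, -0.11 to 0.19 for Sqstm1 and -0.092 to 0.12 for Pink1. At 15 against 6 months they ran from -0.17 to 0.080 for Ulk2, -0.061 to 0.063 for Becn1, -0.024 to 0.15 for Atg4a, -0.072 to 0.075 for Map1lc3b, -0.15 to 0.15 for Sqstm1, -0.067 to 0.15 for Pink1 and -0.19 to 0.025 for Ctsd. At 21 against 15 months they ran from -0.021 to 0.13 for Optn, -0.056 to 0.15 for Atg13, -0.015 to 0.24 for Ulk2, -0.068 to 0.088 for Atg4a, -0.052 to 0.11 for Sqstm1 and -0.087 to 0.039 for Pink1. In the further list, Trp53inp1 at 21 against 6 months also passed the threshold with no filter, with voom weights and without 6-month mouse 3 (-0.92), and at 15 against 6 months without that mouse (-0.87). The cause of these changes was not tested.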
